A study of Xenopus laevis with 3 samples.

Results

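The artemisinin array and the DMSO array, 2 of the 3 arrays of the series, are compared here across the liver transcriptome of female African clawed frogs (Xenopus laevis). Affymetrix controls were set aside, and the remaining probe sets entered if their 3-array mean reached the median, with a lowest mean of 5.61 on the log2 scale. This kept 16270 of 32539 probe sets, and those with 1 gene symbol stood for 7478 genes. Artemisinin was given at 200 mg/kg, dissolved in DMSO, by injection into the body cavity of 3 frogs on 2 consecutive days, and the control frogs received DMSO alone in parallel. The pregnenolone frogs (50 mg/kg, 3 frogs) had the same schedule, and their array is used here for the level filter and for values set beside the others. Liver samples date from 24 h past the last injection. Each group's RNA was pooled before labelling, so each group is 1 array, no value has a replicate error and no difference was tested. The number of DMSO frogs is not spelled out in the labels.

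Artemisinin is an antimalarial drug whose endoperoxide bridge reacts with heme iron and yields carbon-centred radicals. In mammals it also activates the nuclear receptors CAR and PXR, which switch on drug-metabolising enzymes, and the study set out to find target genes of the frog form of CAR. Liver cells answer reactive compounds through several known routes. NRF2 drives glutathione and thioredoxin genes, HSF1 drives chaperones that refold damaged proteins, and NF-kB and the interferon-regulatory factors drive inflammatory and antiviral genes. These routes serve here to order the genes and not to explain the values.

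The deposited values are on a log2 scale and come from the authors' RMA (robust multiarray average) summary. The median was 5.62 on the DMSO array and 5.62 on the artemisinin array. The 27 probe sets of the spike controls that are added at hybridisation were all higher on the artemisinin array, by 0.12 to 0.40 with a median of 0.27, and their median excess on the pregnenolone array was 0.16. The 3 ribosomal RNA probe sets were 0.80, 0.50 and 0.34 higher with artemisinin, the 3′ probe set of actin differed by 0.00 and that of the elongation factor ef1a by -0.63. The part of these shifts in the gene differences was not tested. The labelled tissue was checked by hepatocyte markers, of which 26 of 27 passed the level filter, with a mean log2 value of 12.60 with DMSO and 12.70 with artemisinin. A deposited value was identical on both arrays for 2779 of the 16270 probe sets (17.1%), so a difference of 0.00 was common and does not show that levels were equal.

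Artemisinin livers had more genes above the control than below it at the 2-fold mark. Of 16270 probe sets, 201 (1.24%) were at least 2-fold above DMSO and 101 (0.621%) that far below it. At the level of genes, each represented by its brightest probe set, 95 of 7478 (1.27%) were higher and 53 (0.709%) lower. At 1.5-fold the sides were nearly even, with 477 probe sets higher and 450 lower, and 2.96% of the genes with a usable symbol higher and 2.92% lower. Those shares of named genes are the background for all list counts below. The central 95% of all gene differences ran from -0.64 to 0.65 on the log2 scale, and probe sets of 1 gene differed among themselves with an SD of 0.223. That SD leaves out the spread between frogs and between arrays. In the plot of level against difference the 2-fold genes were found at all levels: when genes were divided by mean level, 20 of 2493 low, 50 of 2492 middle and 25 of 2493 high genes were at least 2-fold higher.

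**Figure D1:**
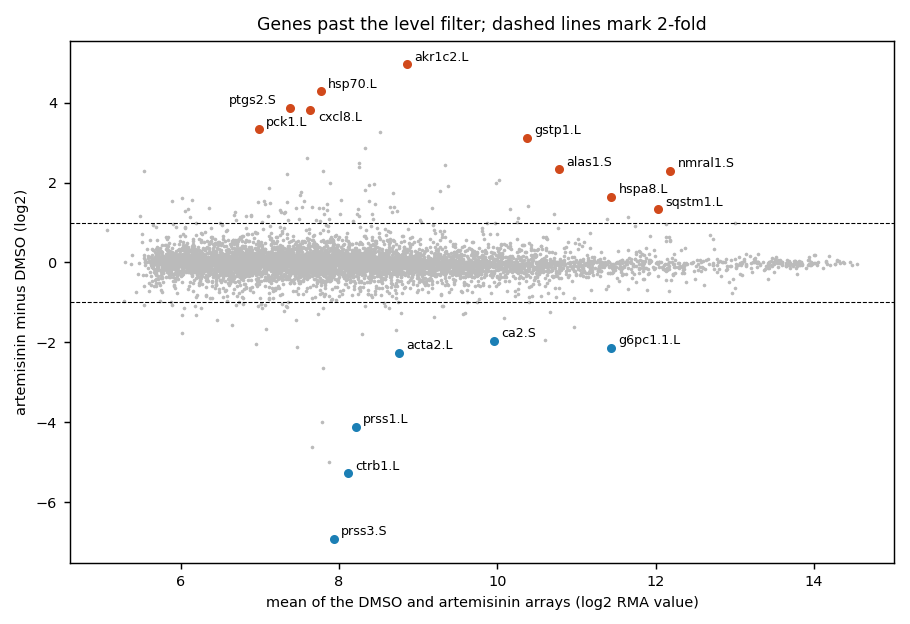
Each grey point is 1 of 7478 genes, with the mean of its DMSO and artemisinin values on the x axis and artemisinin minus DMSO on the y axis, both on the log2 scale. Named genes higher with artemisinin are orange and named genes lower are blue; akr1c2.L stands highest at 4.96 and prss3.S lowest at -6.92.

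The 25 genes furthest above DMSO combined detoxifying enzymes, chaperones, inflammatory mediators and metabolic genes, and differed by at least 1.81 on the log2 scale. For 23 of these 25 genes the artemisinin value was also above the pregnenolone value. The exceptions were pim3.L and tcn2.L. The 25 genes were chosen for a high artemisinin value beside DMSO, which favours that order. It was not counted over all genes. The aldo-keto reductase gene akr1c2.L (Entrez gene 379255), whose human namesake reduces steroid ketones and reactive carbonyls, was 6.37 for DMSO, 8.05 for pregnenolone and 11.33 for artemisinin. Its 31.2-fold excess over DMSO was the largest among the 7478 genes. The gene nmral1.S, a relative of redox-sensing NmrA proteins, was 11.04 for DMSO, 12.09 for pregnenolone and 13.33 for artemisinin, a 4.90-fold difference. Other genes of this group without a place in the lists below were chit1.S, a chitinase gene (8.42 with DMSO and 10.33 with artemisinin), the cornifelin gene cnfn.1.S (7.47 with DMSO and 9.42 with artemisinin) and post.L (4.39 with DMSO and 6.67 with artemisinin). Of the 25 genes, 3 had a DMSO value below the level filter, which makes their folds less certain: ptgs2.S, pck1.L and post.L. All further probe sets of post.L lay below the filter and differed by -0.04 to 0.05.

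**Figure D2:**
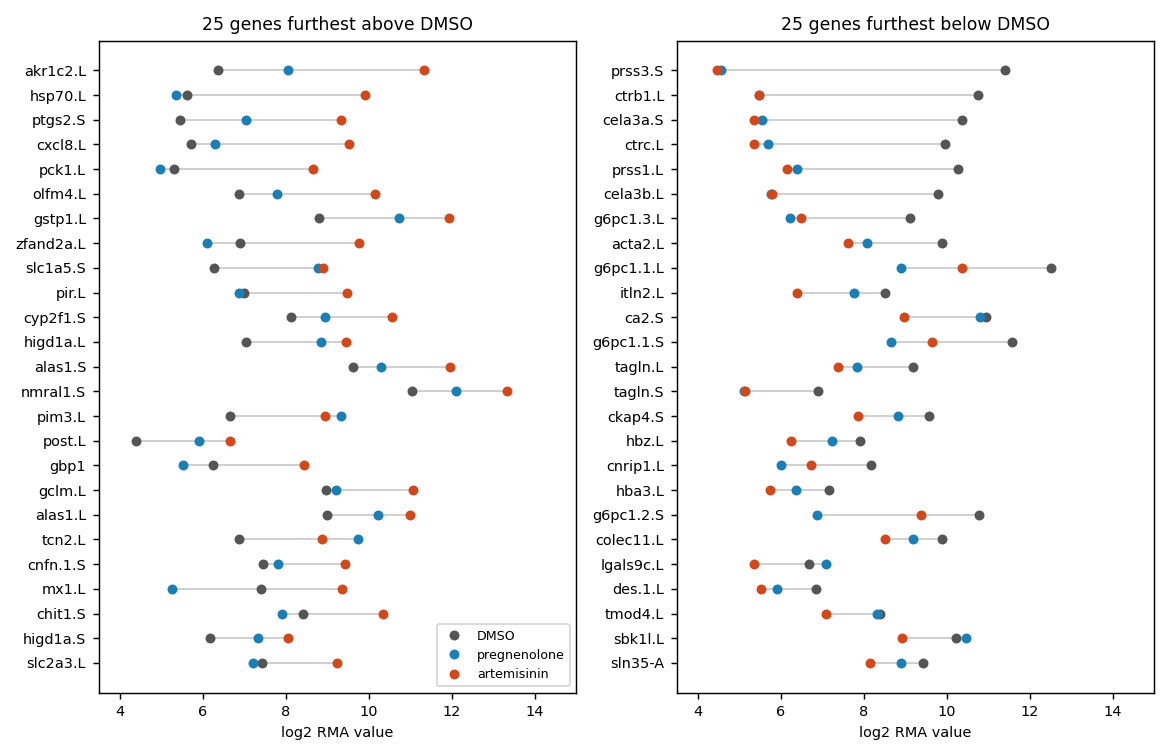
Log2 RMA values on the 3 arrays (grey DMSO, blue pregnenolone, orange artemisinin, 1 array each) for the 25 genes with a usable symbol furthest above DMSO with artemisinin (left) and the 25 furthest below (right). The lines join the lowest and the highest array; the 6 digestive enzyme genes at the top right are low on both treated arrays.

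Among genes of drug metabolism, the first enzyme of heme synthesis, an induced target of CAR and PXR in mammals, and 1 CYP gene were far above DMSO. The gene alas1 makes 5-aminolevulinate for the heme of CYP proteins. The copy alas1.S (Entrez gene 444480) was 9.62 for DMSO, 10.31 for pregnenolone and 11.95 for artemisinin, 5.05-fold higher with artemisinin than with DMSO. The copy alas1.L (398824) was 8.99 for DMSO, 10.22 for pregnenolone and 10.99 for artemisinin, 4.01-fold higher. The cytochrome gene cyp2f1.S (398935) was 8.12 for DMSO, 8.96 for pregnenolone and 10.56 for artemisinin, a 5.43-fold difference. For these 3 genes the pregnenolone value lay between the others.

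Other CYP genes of the families 1 to 4 stayed near the control. Of 24 on the array 20 passed the level filter, and 2 were at least 1.5-fold higher and 1 lower, against 2.96% and 2.92% of the genes with a usable symbol, from which list members come (list median -0.04, all genes 0.00). The second higher gene was cyp1a1.S, of the family that the aryl hydrocarbon receptor controls, at 6.82 with DMSO and 7.88 with artemisinin, and its .L copy was 8.96 with DMSO and 9.27 with artemisinin. The lower gene was cyp2a6.3.L (10.10 with DMSO, 8.77 with pregnenolone and 9.12 with artemisinin). The 10 remaining CYP2 and CYP3A genes other than cyp2c8.2.L (-0.38) differed by -0.13 to 0.29. The copies cyp2a6.9.L (12.55 with DMSO and 12.47 with artemisinin), cyp2b6.L (11.72 with DMSO and 11.59 with artemisinin) and cyp2a6.1.L (11.46 with DMSO and 11.42 with artemisinin) lay high on the scale already with DMSO. P450 reductase, por.L, which feeds electrons to all of these enzymes, was 11.02 with DMSO and 11.08 with artemisinin. The receptor gene nr1i2.S was 6.40 with DMSO and 6.90 with artemisinin, with a difference of -0.04 at its second probe set, and nr1i3, the gene of CAR, has no probe set under that symbol in the annotation and was not analysed here.

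Enzymes beyond the CYP family had several higher genes, while their list medians lay near 0. The aldo-keto, alcohol and aldehyde enzymes had 4 of 31 genes higher and 2 lower (median 0.00) at the 1.5-fold mark, that is 12.9% and 6.45% beside 2.96% and 2.92% of the genes with a usable symbol. Beside akr1c2.L the higher genes were akr1d1.S, a bile acid and steroid reductase (7.67 with DMSO and 8.84 with artemisinin, while the copy akr1d1.L differed by -0.26), and both copies of aldh1a1, which makes retinoic acid (11.09 with DMSO and 12.23 with artemisinin for .L, 10.25 with DMSO and 10.89 with artemisinin for .S). The lower ones were ephx1.L, the microsomal epoxide hydrolase (11.99 with DMSO and 11.32 with artemisinin), and aldh3a2.S (8.79 with DMSO and 8.16 with artemisinin), whose copy aldh3a2.L differed by -0.17. Conjugating transferases had 3 of 28 genes higher and 2 lower (median 0.01), or 10.7% and 7.14%. Their higher members were gstp1.L, the sulfotransferase sult1a1.S (11.28 with DMSO and 12.20 with artemisinin) and papss2.S, which makes the sulfate donor (10.33 with DMSO and 10.93 with artemisinin). A second probe set of sult1a1.S differed by 0.077. The lower members were nnmt.L (10.65 with DMSO, 9.88 with pregnenolone and 9.80 with artemisinin) and sult6b1.5.S (8.77 with DMSO, 7.84 with pregnenolone and 7.98 with artemisinin). Of 10 drug and bile acid carriers slc22a4.L was higher (5.25 with DMSO, below the level filter, and 6.13 with artemisinin) and slco2b1.L lower (6.96 with DMSO and 6.09 with artemisinin). Nuclear receptors had 0 of 32 genes higher and 1 lower (median 0.07), the lower gene being rxrg.L (7.13 with DMSO, 6.30 with pregnenolone and 6.29 with artemisinin).

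Genes for each step of glutathione synthesis and for its recycling were higher with artemisinin. Synthesis starts with glutamate-cysteine ligase, of which gclc is the catalytic and gclm the modifier subunit. The gene gclm.L (Entrez gene 380105) was 8.98 for DMSO, 9.21 for pregnenolone and 11.06 for artemisinin, 4.21-fold higher than DMSO. The catalytic copies were 7.62 with DMSO, 7.61 with pregnenolone and 8.84 with artemisinin for gclc.S, and 6.30 with DMSO, 7.04 with pregnenolone and 7.46 with artemisinin for gclc.L. Glutathione synthetase gss.L, the second step, was 8.53 for DMSO, 8.53 for pregnenolone and 9.53 for artemisinin. Glutathione reductase gsr.L, which recycles the oxidised form, was 8.50 for DMSO, 8.50 for pregnenolone and 9.86 for artemisinin. For gclc.S, gss.L and gsr.L the DMSO and pregnenolone values were nearly the same, with artemisinin 2.33-fold, 2.01-fold and 2.56-fold above DMSO. Among the users of glutathione, the transferase gene gstp1.L (398321) was 8.81 for DMSO, 10.73 for pregnenolone and 11.93 for artemisinin, and all 5 of its probe sets were at least 2-fold higher than DMSO, by 2.80 to 4.35. The peroxidase gene gpx1.L was 9.48 with DMSO, 9.53 with pregnenolone and 10.46 with artemisinin, and gpx1.S differed by 0.35. Further probe sets of gclc.L, which lay below the level filter, differed by 0.00 to 0.67.

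The wider antioxidant list held 51 genes past the filter of 54 on the array. Of these 13 (25.5%) were at least 1.5-fold higher and 3 (5.88%) lower (median 0.14), beside 2.96% and 2.92% of the genes with a usable symbol. Pirin, pir.L, an iron protein that is an NRF2 target in mammals, was 7.01 with DMSO, 6.88 with pregnenolone and 9.49 with artemisinin. Thioredoxin txn.L, which reduces disulfides, was 10.84 with DMSO, 10.21 with pregnenolone and 11.93 with artemisinin, and the thioredoxin reductase gene txnrd3.L, named after its value was seen, was 9.37 with DMSO, 9.73 with pregnenolone and 10.37 with artemisinin. The autophagy receptor sqstm1.L, which also binds the NRF2 inhibitor KEAP1, was 11.36 with DMSO, 11.36 with pregnenolone and 12.69 with artemisinin. Heme oxygenase, which breaks heme down, differed less, from 12.43 to 13.03 for hmox1.L and from 11.91 to 12.46 for hmox1.S, both at high levels. The 3 lower genes were prdx2.L (11.29 with DMSO and 10.04 with artemisinin), cat.1.L (7.80 with DMSO and 6.75 with artemisinin) and the biliverdin reductase blvrb.L (10.66 with DMSO and 9.87 with artemisinin). In mammals the products of these 3 genes are abundant in red blood cells, whose markers were also lower on this array. In pooled tissue RNA, fewer cells of a type and less RNA per cell cannot be told apart.

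Cytosolic chaperone genes were more often above DMSO than below it. Of 42 heat shock genes 30 passed the filter. Of these 8 (26.7%) were at least 1.5-fold higher and 0 lower, beside 2.96% and 2.92% of the genes with a usable symbol. A difference above 0 was seen for 24 (list median 0.32, all genes 0.00), a sign that was not counted over all genes. With no level filter 10 of 42 genes passed 1.5-fold and the list median was 0.27. The share of all genes was not counted for that setting. The inducible chaperone hsp70.L (Entrez gene 398343) was 5.63 for DMSO, 5.37 for pregnenolone and 9.91 for artemisinin, 19.5-fold over DMSO. With a DMSO value near the level filter and a pregnenolone value below it, hsp70.L passed through its artemisinin value, so its fold is less certain. Its relative hspa1a.S was 7.56 with DMSO, 6.46 with pregnenolone and 8.91 with artemisinin, with the same difference at both of its probe sets (1.35 and 1.36). The constitutive form hspa8.L, abundant in every cell, was 10.62 with DMSO, 10.37 with pregnenolone and 12.27 with artemisinin. Both copies of ahsa1, which stimulates the ATPase of HSP90, were higher, at 5.12 with DMSO and 6.67 with artemisinin for ahsa1.L and 6.77 with DMSO and 8.13 with artemisinin for ahsa1.S. The ahsa1.L value lay below the level filter with DMSO and with pregnenolone, so its fold is less certain too. The co-chaperones dnaja4.1.L (7.62 with DMSO and 9.15 with artemisinin) and dnaja4.2.S (6.08 with DMSO and 6.70 with artemisinin) were higher as well, and so was zfand2a.L, an arsenite-inducible partner of the proteasome in mammals (6.90 with DMSO, 6.11 with pregnenolone and 9.77 with artemisinin). Of the genes outside the list, chosen after their values were seen, the HSP70 partner hspbp1.L was 6.38 with DMSO and 7.87 with artemisinin and dnajb2.L 6.69 with DMSO and 7.93 with artemisinin.

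Proteasome genes were shifted upwards by small amounts. Of 60 subunit genes 50 lay above 0 and 5 below, with a median of 0.22 (all genes 0.00). Over all genes these signs were not counted. At 1.5-fold 1 was higher and 1 lower, 1.67% each, beside 2.96% and 2.92% of the genes with a usable symbol. The median with pregnenolone was 0.18, so the shift was seen on both treated arrays, which share the DMSO array. The higher gene was psmc5.S (8.73 with DMSO and 9.32 with artemisinin), and psmc5.L differed by 0.32. The lower gene psmd3.S (-1.09) had other probe sets at 0.19 and 0.14. Autophagy and lysosome genes had 1 of 39 genes higher and 1 lower (2.56% each, median -0.01), near those shares. The higher gene was sqstm1.L and the lower becn1.L (8.57 with DMSO, 7.42 with pregnenolone and 7.76 with artemisinin).

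**Figure D3:**
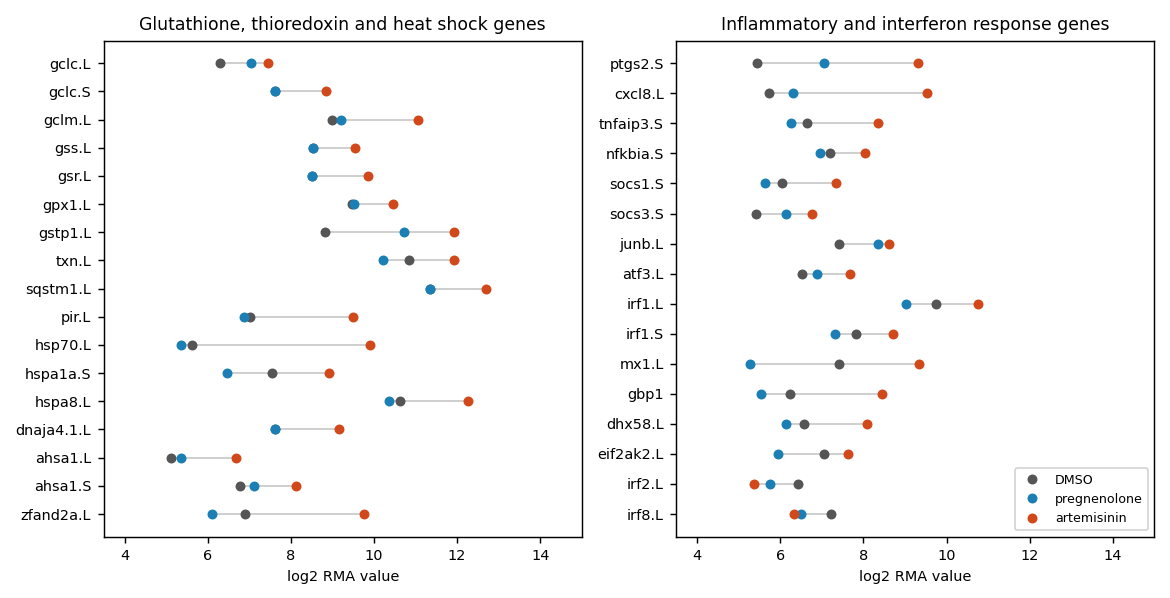
Log2 RMA values on the 3 arrays (grey DMSO, blue pregnenolone, orange artemisinin) for genes of glutathione, thioredoxin and heat shock (left) and of the inflammatory and interferon responses (right). The artemisinin array is highest for all 17 genes on the left and for 14 of 16 on the right. There irf2.L and irf8.L are lowest. The genes shown are a selection, so these counts describe that choice and not the lists. List members left out include prdx2.L, cat.1.L, blvrb.L and ccn2.L, which were lower with artemisinin than with DMSO. Also left out are list members that were higher with pregnenolone than with artemisinin, such as pim3.L, pim3.S, pim1.L and gadd45a.S.

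Inflammatory and immediate early genes had 19 of 52 genes past the filter higher (36.5%) and 1 lower (1.92%), with a median of 0.24. Among the genes with a usable symbol 2.96% were higher and 2.92% lower. The count of 19 was the largest of the 34 lists, while the interferon list had the larger share, 46.2%. The lists were written with earlier results of these data known. At the effector end, ptgs2.S, the inducible prostaglandin synthase (Entrez gene 446781), was 5.44 for DMSO, 7.04 for pregnenolone and 9.32 for artemisinin. The neutrophil-attracting chemokine gene cxcl8.L (100036815) was 5.72 for DMSO, 6.30 for pregnenolone and 9.53 for artemisinin. These are differences of 14.7-fold and 14.0-fold from DMSO values near the level filter. The secreted glycoprotein gene olfm4.L was 6.89 with DMSO, 7.80 with pregnenolone and 10.15 with artemisinin, and the metalloproteinase inhibitor timp-1.L 8.38 with DMSO, 7.42 with pregnenolone and 10.18 with artemisinin.

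Regulators of NF-kB signalling, both restraining and activating, were among the higher genes. The ubiquitin-editing enzyme gene tnfaip3.S was 6.65 with DMSO, 6.25 with pregnenolone and 8.35 with artemisinin. The inhibitor gene nfkbia.S was 7.19 with DMSO, 6.94 with pregnenolone and 8.03 with artemisinin, and birc2.L, a ubiquitin ligase of TNF signalling, 7.89 with DMSO, 8.33 with pregnenolone and 8.97 with artemisinin. Their other copies differed by 0.49 for nfkbia.L and 0.00 for birc2.S. The partners of tnfaip3, tnip1.S (7.18 with DMSO and 8.24 with artemisinin) and tnip2.L (5.67 with DMSO and 7.05 with artemisinin), were named after their values were seen. The kinase gene ikbkb.L, which releases NF-kB, was higher at all 3 of its probe sets, by 1.37 to 1.56, and its value was higher still with pregnenolone (8.35 against 7.73 with artemisinin). The suppressors of cytokine signalling were 6.05 with DMSO, 5.63 with pregnenolone and 7.33 with artemisinin for socs1.S and 5.41 with DMSO, 6.12 with pregnenolone and 6.76 with artemisinin for socs3.S. The DMSO value of socs3.S lay below the level filter.

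Transcription factors of the early stress response differed less than ptgs2.S and cxcl8.L. The AP-1 gene junb.L was 7.41 with DMSO and 8.62 with artemisinin and jun.L 6.25 with DMSO and 6.83 with artemisinin, while atf3.L was 6.52 with DMSO and 7.68 with artemisinin. The chosen probe set of junb.S was identical on both arrays, and its other probe set differed by 1.02. The growth arrest gene gadd45g.S (7.33 with DMSO and 8.42 with artemisinin) and the factor cebpd.S (9.38 with DMSO and 10.24 with artemisinin) were also higher. So was the growth arrest gene gadd45a.S, which was higher still with pregnenolone (6.80 with DMSO, 7.87 with pregnenolone and 7.70 with artemisinin). The copies gadd45g.L and cebpd.L differed by 0.30 and 0.25, and a second probe set of cebpd.S was identical on both arrays. The kinase genes pim3.L (6.65 with DMSO, 9.33 with pregnenolone and 8.94 with artemisinin) and pim3.S (6.84 with DMSO, 9.16 with pregnenolone and 8.23 with artemisinin) were higher with pregnenolone than with artemisinin, and a second probe set of pim3.S differed by 0.22. The same order held for pim1.L (8.93 with DMSO, 9.85 with pregnenolone and 9.66 with artemisinin). The lower gene of the list was ccn2.L, a matricellular growth factor made largely by stromal cells (7.90 with DMSO and 6.78 with artemisinin). Cell death and p53 genes had 3 of 16 genes higher (18.8%) and 0 lower (median 0.11), beside 2.96% and 2.92% of the genes with a usable symbol. The list median of -0.01 for acute phase and complement genes lay near 0, with 6.45% higher and 12.9% lower. In that list 2 of 31 genes were higher, fga.S (12.34 with DMSO and 13.04 with artemisinin) and masp2.S (10.31 with DMSO and 10.93 with artemisinin), and 4 lower, led by the lectin gene itln2.L (8.52 with DMSO, 7.76 with pregnenolone and 6.40 with artemisinin). The copy fga.L differed by -0.01.

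Interferon response genes divided in both directions. Of 19 on the array 13 passed the filter, 6 (46.2%) were 1.5-fold or more higher and 2 (15.4%) lower (median 0.33). Among the genes with a usable symbol the shares were 2.96% and 2.92%. The antiviral GTPase gene mx1.L (Entrez gene 100861583) was 7.40 for DMSO, 5.26 for pregnenolone and 9.35 for artemisinin. The guanylate-binding protein gene gbp1 was 6.24 with DMSO, 5.52 with pregnenolone and 8.45 with artemisinin, and dhx58.L, a sensor of viral RNA, 6.58 with DMSO, 6.13 with pregnenolone and 8.10 with artemisinin. The RNA-dependent kinase eif2ak2.L was 7.04 with DMSO, 5.95 with pregnenolone and 7.64 with artemisinin. For these 4 genes the pregnenolone array was the lowest and the artemisinin array the highest of the 3. The activating factor irf1 was higher in both copies (9.74 with DMSO and 10.75 with artemisinin for irf1.L, 7.82 with DMSO and 8.70 with artemisinin for irf1.S), although a second irf1.L probe set differed by -0.07. The lower genes were irf2.L (6.42 with DMSO, 5.74 with pregnenolone and 5.36 with artemisinin), an antagonist of irf1, and irf8.L, a factor of myeloid and B cells (7.23 with DMSO, 6.50 with pregnenolone and 6.34 with artemisinin). The copy irf2.S differed by -0.07.

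Genes that interferon induces in mammals and that were named after their values were seen included herc6.S (7.24 with DMSO, 6.04 with pregnenolone and 8.80 with artemisinin), parp12.L (8.09 with DMSO, 6.68 with pregnenolone and 9.38 with artemisinin) and nt5c3a.L (7.82 with DMSO, 7.10 with pregnenolone and 9.03 with artemisinin). The same order of the 3 arrays held for them, but they were chosen with their values known, so this is no separate support. Not every gene chosen this way had that order: mhc1b.L was 7.40 with DMSO, 7.43 with pregnenolone and 8.31 with artemisinin. Of 18 leukocyte markers 0 were 1.5-fold or more higher and 0 lower, beside 2.96% and 2.92% of the genes with a usable symbol. For a list of 18 genes, counts of 0 lie near those shares and say little of leukocytes. The mean log2 value of the markers was 8.94 with DMSO and 8.85 with artemisinin. The largest difference among them was -0.47, for cd74.L. Without the level filter the median of the interferon list was 0.05 over 19 genes.

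Glucose handling genes were on opposite sides. Of 28 genes of glucose release and glycogen 3 (10.7%) were at least 1.5-fold higher and 6 (21.4%) lower (median -0.22). Among the genes with a usable symbol 2.96% were higher and 2.92% lower. Phosphoenolpyruvate carboxykinase, pck1.L (Entrez gene 379844), which commits carbon to glucose synthesis, was 5.32 for DMSO, 4.97 for pregnenolone and 8.65 for artemisinin, a 10.1-fold difference. With DMSO and pregnenolone values below the level filter, pck1.L passed through its artemisinin value, so its fold is less certain. Glucose-6-phosphatase, the last step, was lower in its 5 measured genes. The gene g6pc1.1.L (379852), was 12.50 for DMSO, 8.91 for pregnenolone and 10.36 for artemisinin, 4.40-fold lower with artemisinin than with DMSO. The others differed by -2.63 for g6pc1.3.L, -1.94 for g6pc1.1.S, -1.38 for g6pc1.2.S and -0.86 for g6pc1.2.L. All 5 were lower still with pregnenolone, at values of 6.23 to 8.94. Also higher were tat.S, the glucocorticoid-inducible tyrosine aminotransferase (7.95 with DMSO, 8.44 with pregnenolone and 9.35 with artemisinin), and igfbp1.L, an insulin-repressed binding protein (7.39 with DMSO, 7.41 with pregnenolone and 8.13 with artemisinin), whose copy igfbp1.S differed by -0.27.

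Among glycolysis and hypoxia genes 4 of 44 (9.09%) were higher and 1 (2.27%) lower (median -0.07), beside 2.96% and 2.92% of the genes with a usable symbol. The mitochondrial protein higd1a, induced by low oxygen in mammals, was higher in both copies: higd1a.L was 7.05 with DMSO, 8.84 with pregnenolone and 9.45 with artemisinin, and higd1a.S 6.18 with DMSO, 7.32 with pregnenolone and 8.05 with artemisinin. The glucose carrier slc2a3.L was 7.43 with DMSO, 7.22 with pregnenolone and 9.24 with artemisinin and slc2a1.L 6.17 with DMSO, 6.40 with pregnenolone and 6.97 with artemisinin. A further hypoxia-inducible mitochondrial gene, fam162a.L, chosen after its value was seen, was 7.81 with DMSO, 7.96 with pregnenolone and 9.56 with artemisinin. The lower gene was pdk4.S, a kinase that shuts off pyruvate dehydrogenase (8.37 with DMSO, 7.72 with pregnenolone and 7.22 with artemisinin), and its copy pdk4.L differed by -0.08. Genes of the glycolytic enzymes themselves lay within 1.5-fold, the furthest being pgk1 at -0.54.

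Lipid metabolism lists had few genes past 1.5-fold, beside 2.96% higher and 2.92% lower of the genes with a usable symbol. Shares higher and lower were 0% and 4.76% for cholesterol and 5.71% and 5.71% for fatty acid synthesis. They were 0% and 2.86% for fatty acid oxidation and 20.0% and 0% for bile acid synthesis, a list of 10. Cholesterol synthesis and uptake had 0 of 21 genes higher and 1 lower (median 0.00), and the median with pregnenolone was 0.73. Fatty acid and triglyceride synthesis had 2 of 35 higher and 2 lower. The lipid droplet coat gene plin2.L was higher at all 3 probe sets, by 1.33 to 1.66 (9.50 with DMSO, 10.45 with pregnenolone and 10.83 with artemisinin), and cidec.S, another droplet protein, was 8.47 with DMSO and 9.13 with artemisinin. The desaturase genes were lower, at 7.22 with DMSO, 8.34 with pregnenolone and 6.24 with artemisinin for fads2.S and 8.95 with DMSO, 9.50 with pregnenolone and 8.12 with artemisinin for scd.S. The other copies of these lipid genes lay within 1.5-fold, at 0.38 for plin2.S, 0.04 for cidec.L, -0.25 for fads2.L and -0.26 for scd.L. Fatty acid oxidation and peroxisome genes had 0 of 35 higher and 1 lower, the lower gene being cat.1.L. Bile acid synthesis had 2 of 10 genes higher and 0 lower (median -0.13), with akr1d1.S (but not its .L copy, -0.26) and cyp46a1.2.L (6.20 with DMSO and 6.87 with artemisinin) higher.

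The remaining metabolic and secretory lists held a few genes each past 1.5-fold, beside 2.96% higher and 2.92% lower of the genes with a usable symbol. Shares higher and lower were 3.85% and 5.77% for amino acid breakdown and 7.69% and 0% for secreted proteins. They were 5% and 6.67% for the unfolded protein list and 0% and 1.89% for the cell cycle. For the oestrogen response, a list of 7, they were 14.3% and 14.3%. Amino acid breakdown and the urea cycle had 2 of 52 genes higher and 3 lower (median -0.15), with cbs.S of the cysteine route higher (9.64 with DMSO and 10.35 with artemisinin) and got2.L lower (9.90 with DMSO and 9.19 with artemisinin). The copy cbs.L differed by -0.10. Secreted hepatocyte proteins and coagulation had 3 of 39 genes higher and 0 lower (median -0.04). They were the cobalamin carrier tcn2.L (6.89 with DMSO, 9.73 with pregnenolone and 8.87 with artemisinin), transthyretin ttr.L (10.32 with DMSO, 8.46 with pregnenolone and 11.20 with artemisinin) and igfbp1.L. The unfolded protein and amino acid stress list had 3 of 60 genes higher and 4 lower (median -0.02). Both copies of the ER chaperone hspa5 were higher (hspa5.L 11.65 with DMSO, 12.45 with pregnenolone and 12.62 with artemisinin, hspa5.S 10.10 with DMSO, 11.32 with pregnenolone and 11.33 with artemisinin), as was the glutamine carrier slc1a5.S (6.28 with DMSO, 8.78 with pregnenolone and 8.91 with artemisinin). Other ER folding genes were lower on both treated arrays, such as dnajb11.S (9.02 with DMSO, 8.27 with pregnenolone and 8.24 with artemisinin), pdia6.S (12.24 with DMSO, 11.31 with pregnenolone and 11.55 with artemisinin) and hsp90b1.L (13.32 with DMSO, 12.35 with pregnenolone and 12.69 with artemisinin). Their other copies differed by -0.24 for dnajb11.L, -0.55 for pdia6.L and -0.05 for hsp90b1.S. Cell cycle and DNA replication had 0 of 53 genes higher and 1 lower (median 0.00), the lower gene being ccnd1.S (8.58 with DMSO and 7.96 with artemisinin, with ccnd1.L at 0.11), and the oestrogen response and yolk list had 1 of 7 genes higher and 1 lower (median 0.01). Its lower gene was ca2.S, a carbonic anhydrase that is also on the erythrocyte list (10.94 with DMSO, 10.80 with pregnenolone and 8.97 with artemisinin).

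**Figure D4:**
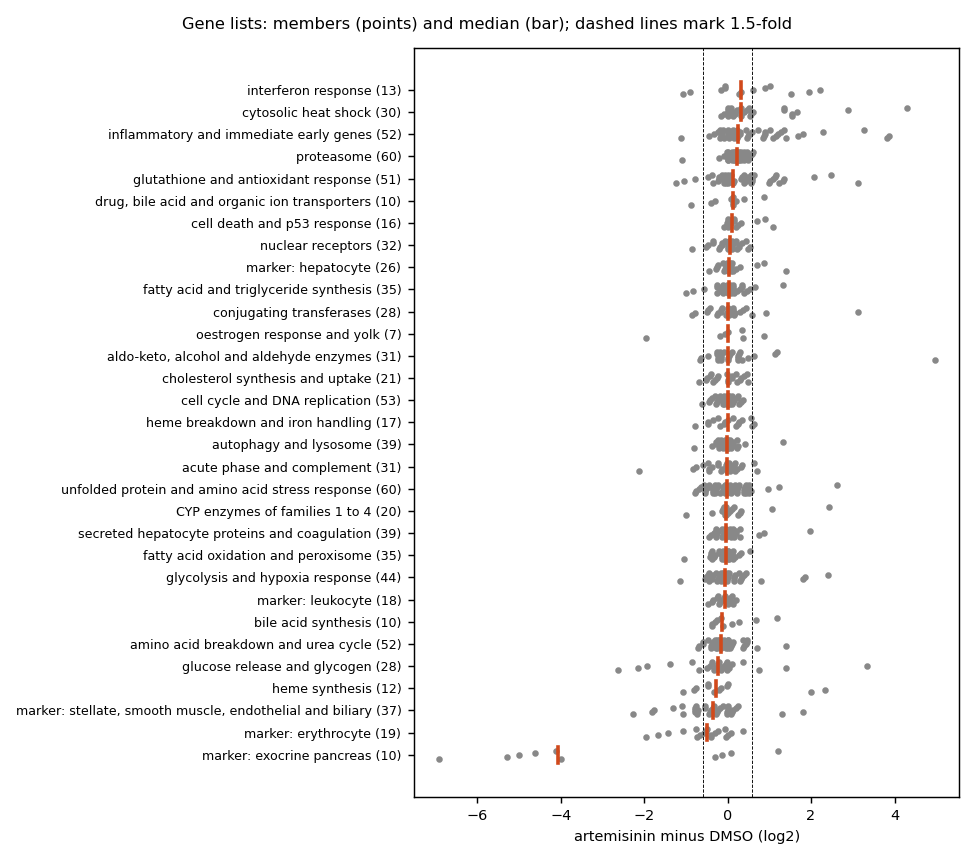
Artemisinin minus DMSO on the log2 scale for the members of each list with at least 5 genes past the level filter (number in brackets); points are genes, orange bars are list medians and dashed lines mark 1.5-fold. The exocrine pancreas list stands at a median of -4.06 over the 10 genes past the filter (-0.34 over all 30 with no filter), while the other medians lie between -0.50 and 0.33.

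The housekeeping and the erythroid form of the first heme enzyme lay on opposite sides of DMSO. Of 12 heme synthesis genes the housekeeping enzyme alas1 was higher in both copies, while the erythroid form alas2 was lower, at 9.85 with DMSO, 10.17 with pregnenolone and 8.77 with artemisinin for alas2.S and 10.30 with DMSO, 10.85 with pregnenolone and 9.55 with artemisinin for alas2.L. The next enzyme, alad.S, was 8.76 with DMSO, 8.73 with pregnenolone and 7.97 with artemisinin, and alad.L differed by -0.47. The list median was -0.27, and 9 of 12 lay below 0, a sign that was not counted over all genes. Past the 1.5-fold mark lay 2 of the 12 on the high side (16.7%) and 3 on the low side (25%). The shares of the genes with a usable symbol were 2.96% and 2.92%. Heme breakdown and iron handling had 2 of 17 genes higher and 1 lower (median 0.00), or 11.8% and 5.88% beside those same background shares. The metalloreductase steap4.2.L was among the higher ones (11.82 with DMSO and 12.45 with artemisinin).

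Erythrocyte markers were lower with artemisinin in 7 of 19 genes past the filter (36.8%, 24 on the array) and higher in 0, with a median of -0.50. Among the genes with a usable symbol 2.92% were lower and 2.96% higher. Their mean log2 value was 9.10 with DMSO, 9.10 with pregnenolone and 8.53 with artemisinin, so the artemisinin array was the low one. Beside ca2.S and alas2 they included the globin genes hbz.L (7.92 with DMSO, 7.23 with pregnenolone and 6.24 with artemisinin) and hba3.L (7.18 with DMSO, 6.37 with pregnenolone and 5.74 with artemisinin). The anion exchanger slc4a1.L of the red cell membrane was 10.59 with DMSO, 10.64 with pregnenolone and 9.87 with artemisinin, and the erythroid factor gata1.L 7.57 with DMSO, 7.67 with pregnenolone and 6.92 with artemisinin, with gata1.S at a difference of -0.56. The part of red cells in the lower values of prdx2.L, cat.1.L, blvrb.L and alad.S was not tested.

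Genes of contractile and matrix-forming cells were lower on both treated arrays. Of 37 markers of stellate, smooth muscle, endothelial and biliary cells 13 (35.1%) were at least 1.5-fold lower and 2 (5.41%) higher (median -0.36). Among the genes with a usable symbol the shares were 2.92% and 2.96%. The mean log2 value of the 37 genes was 8.28 with DMSO, 7.89 with pregnenolone and 7.88 with artemisinin. With no level filter the list median was -0.18 over 54 genes. Members such as tagln.S (6.89 with DMSO, 5.11 with pregnenolone and 5.13 with artemisinin) passed the filter through their DMSO value. Contractile genes led the list: smooth muscle actin acta2.L was 9.90 with DMSO, 8.08 with pregnenolone and 7.63 with artemisinin, tagln.L 9.19 with DMSO, 7.83 with pregnenolone and 7.39 with artemisinin and the desmin gene des.1.L 6.85 with DMSO, 5.91 with pregnenolone and 5.53 with artemisinin. Collagen genes differed less, at -0.79 for col1a2.L, -0.77 for col1a1.S and -0.74 for col3a1.S. The biliary factor sox9.S was 7.52 with DMSO, 6.12 with pregnenolone and 6.43 with artemisinin, while the copy sox9.L differed by 0.21. The higher members were timp-1.L and the endothelial junction gene cldn5.L (7.20 with DMSO, 7.29 with pregnenolone and 8.51 with artemisinin), whose .S copy differed by -0.10.

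Digestive enzymes of the exocrine pancreas made up the 6 lowest genes of the comparison. The trypsinogen gene prss3.S (Entrez gene 447093) was 11.39 for DMSO, 4.56 for pregnenolone and 4.47 for artemisinin. The chymotrypsinogen gene ctrb1.L was 10.76 with DMSO, 5.47 with pregnenolone and 5.47 with artemisinin. Members that are high with DMSO alone, such as these, passed the level filter through that array, so the median of -4.06 over the 10 of 30 members past it describes a choice that used the DMSO value. With no level filter the list median was -0.34 over 30 genes, of which 13 were at least 1.5-fold lower and 1 higher. The median of all 11303 genes was then 0.00, and their share past 1.5-fold was not counted. The elastase gene cela1.4.L differed by -0.13 at its brightest probe set and by -5.18 at another. The lipase-related gene pnliprp2.L was 6.29 with DMSO, 5.84 with pregnenolone and 7.49 with artemisinin. Muscle, oocyte and pigment cell markers were too few past the filter for a summary (2, 1 and 4 genes), and none of these differed by 1.5-fold. The part of pancreatic tissue or of stromal cells in other genes high on the DMSO array was not tested.

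Of the 25 lowest genes 17 had their lowest value on the artemisinin array. They were chosen for a low artemisinin value beside DMSO, which favours that order. It was not counted over all genes. The genes without a place in the lists included ckap4.S, an ER membrane protein (9.57 with DMSO, 8.83 with pregnenolone and 7.87 with artemisinin), whose copy ckap4.L was 7.60 with DMSO, 6.67 with pregnenolone and 6.45 with artemisinin. The liver lectin colec11.L was 9.88 with DMSO, 9.19 with pregnenolone and 8.51 with artemisinin, the actin-capping gene tmod4.L 8.39 with DMSO, 8.31 with pregnenolone and 7.08 with artemisinin and cnrip1.L 8.17 with DMSO, 6.00 with pregnenolone and 6.73 with artemisinin. The galectin gene lgals9c.L was 6.67 with DMSO, 7.09 with pregnenolone and 5.35 with artemisinin, and lgals9c.S differed by -0.28. The kinase-like gene sbk1l.L was lower at 3 of its 5 probe sets past the filter, by -1.29 to -1.43, and differed by -0.07 and 0.08 at the others. In 7 of the 25 genes the artemisinin value lay below the level filter.

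Xenopus laevis is allotetraploid, and many genes have a copy on a long (.L) and a short (.S) chromosome. The copies can be set beside each other. Of 1171 pairs with both copies past the filter, 40 had at least 1 copy differing by 2-fold. In 33 of these 40 the other copy had the same sign, in 5 the opposite sign and in 2 it was identical on both arrays. The 40 pairs were chosen by these same differences, and signs were not counted over all 1171 pairs. Both copies differed by 2-fold the same way in 9 pairs, namely alas1, higd1a, pim3, gclc, ahsa1, g6pc1.1, tagln, ckap4 and plpp3. Among them, ahsa1.L had a DMSO value and tagln.S an artemisinin value below the level filter. In 23 of the 40 the other copy lay within 1.5-fold. Across all 1171 pairs the differences of the copies correlated at Pearson r = 0.54, as a description: the pairs share both arrays, and probes can bind the other copy. Divergent pairs included slc1a5 (2.62 for .S, 0.39 for .L), tcn2 (1.98 for .L, 0.14 for .S) and ca2 (-1.97 for .S, 0.36 for .L).

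**Figure D5:**
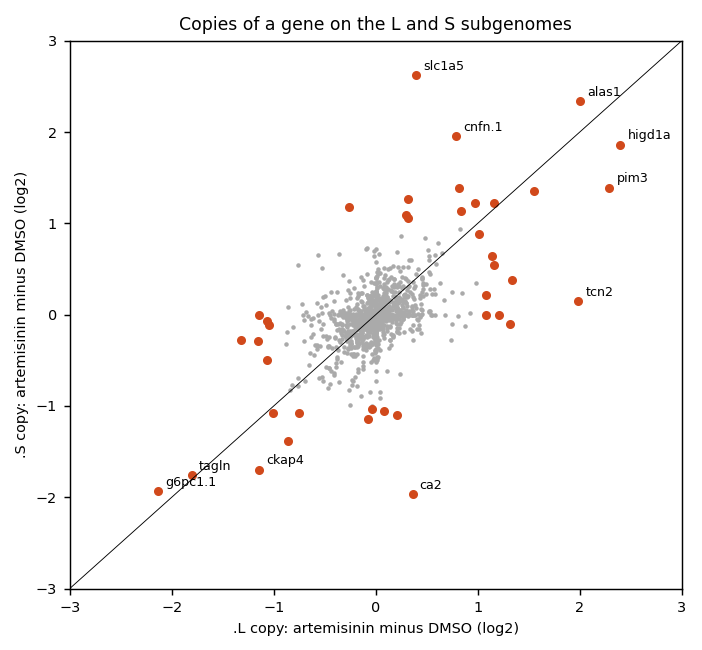
Artemisinin minus DMSO (log2) of the .L copy on the x axis and of the .S copy on the y axis for 1171 gene pairs; orange points are the 40 pairs with a 2-fold difference in at least 1 copy and the line marks equality. Copies of alas1 and higd1a lie near the line on the high side and those of tagln and g6pc1.1 on the low side, while slc1a5, tcn2 and ca2 lie far from it.

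Probe sets of the same gene were also set side by side. They were read on the same 2 pooled arrays, and several differ only in the suffix of their name. They can therefore show a fault of 1 probe set but cannot check the difference between the groups. Signs were not counted over all 1287 genes with several probe sets. Of 20 genes at least 2-fold different with a second probe set past the filter, 15 had the same sign there and 9 were 2-fold different there too. All probe sets past the filter differed by 2-fold the same way in 8 genes, of which gstp1.L, plin2.L, ikbkb.L, hspa1a.S, aldh1a1.L and rasd1 (6.79 with DMSO and 8.33 with artemisinin) were higher and glul-like.1.L (7.22 with DMSO and 6.16 with artemisinin) and pax3.L (10.22 with DMSO and 8.97 with artemisinin) lower. Further probe sets of pax3.L, far below these at 2.31 to 4.76 with DMSO and below the filter, differed by -0.27 to 0.15. Which of the probe sets measure pax3.L was not tested. Some genes were split between probe sets. The DNA repair gene xrcc1.L differed by 1.36 and -0.17, and fcho1.L by 1.27 at 1 probe set while the other was identical on both arrays.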

How the data were processed

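Liver RNA of 3 groups was measured on 3 Affymetrix Xenopus laevis arrays, 1 pooled array per group. The values are log2 expression values that the authors deposited, made by RMA per the submitters' processing notes; the RMA version and settings are not given in the sources used here. Nothing was renormalised for the main values.

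The 96 control probe sets were left out, and probe sets with a mean over the 3 arrays of at least 5.61, the median, were kept. Probe sets were named from the platform annotation, with 2 symbols updated from RefSeq: 15495 had 1 symbol, 279 several and 16765 none. Each gene was represented by its brightest probe set. Differences are artemisinin minus DMSO, and the marks were 2-fold for genes and 1.5-fold for list members. With 1 array per group no test was possible, and the number of arrays limits the precision. Named genes are the 25 furthest from DMSO on each side with a usable symbol, list members past 1.5-fold, further probe sets and copies of these, and genes said to be chosen after their values were seen. The members and the 34 lists were chosen with earlier results of these data known.

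Alternatives were other level filters, thresholds, centring, quantile normalization, a loess trend (span 0.3), leaving out probe sets that match several transcripts, and means over probe sets. Leaving out markers of other cell types and identical values was added after seeing the data. The code was also run on simulated arrays, in which the added shifts were well past the 2-fold mark and the noise was small. Recovery of those shifts was set by construction and says nothing of the spread between frogs or arrays. Python 3.11.15, numpy 2.4.6, pandas 2.3.3, statsmodels 0.14.6 and matplotlib 3.10.9 were used.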

Additional observations from a re-analysis of the deposited data

How the results depend on the processing

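Of 69 counts compared across alternatives, 56 stayed within 1.5 times the reported count and 13 did not. With no level filter 14 exocrine pancreas genes passed 1.5-fold in place of 7. With the filter at the 75th percentile 118 probe sets were at least 2-fold higher (201 reported), 52 lower (101 reported) and 91 genes passed (148 reported), with 5 heat shock genes and 1 pancreas gene past 1.5-fold in place of 8 and 7. A 1.5-fold threshold gave 477 higher and 450 lower probe sets and 447 genes, and a 3-fold threshold 63, 26 and 49. At 2-fold 4 erythrocyte markers remained past the mark of the 7 at 1.5-fold. Without probe sets that match several transcripts irf1.L stood at -0.066, the 1 reversal among the named genes. All 283 named genes kept direction and side of the mark under quantile normalization and the loess trend, and 16 moved when probe sets were averaged. The deposited quartiles were already close (4.19 and 7.30 with DMSO, 4.19 and 7.32 with artemisinin). Quantile normalization and the loess trend therefore changed little: the heat shock median, for example, went from 0.32 to 0.35 under either. They say little of the stability of large differences. Dropping the level filter or centring on the median leaves the values of these genes the same or nearly so by construction and says nothing of their stability. The exocrine pancreas list had a median of -0.34 over 30 genes without the filter, against -4.06 over 10. Dropping other cell types' markers, an alternative chosen after seeing the data, left 198 higher and 84 lower probe sets. No paired analysis was possible because each group is 1 array. No array could be left out for the same reason, and the spread between frogs is unknown.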

Other observations

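Of the 302 probe sets that differed by at least 2-fold, 130 have no usable gene symbol. Such gaps are common on this array: of all 32539 probe sets before the level filter, 16765 have no symbol. The share among probe sets past the filter was not counted. Of the 50 most different probe sets 15 have no usable symbol, of which 10 were higher and 5 lower with artemisinin. The probe set Xl2.18539.1.A1_at was 10.57 for DMSO, 5.21 for pregnenolone and 6.20 for artemisinin, and Xl2.26185.1.A1_at was 7.19, 5.66 and 4.20 in the same order. On the high side Xl2.26714.3.A1_at was 3.86 with DMSO, 7.39 with pregnenolone and 7.64 with artemisinin. The probe set Xl2.8029.1.S1_at was 6.73, 8.16 and 9.53.

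The 11 probe sets of the mitochondrial genome differed by -0.17 to 0.42, with a median of 0.06.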
